A study of Mus musculus with 50 samples.

Results

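Fatty acid oxidation, ketone body formation and the genes driven by the peroxisome proliferator-activated receptors (PPARs) were followed as 38 listed genes in the colon of mice lacking FADD or caspase-8 in the intestinal epithelium. The members were chosen by function, with earlier results of these data known. Of the 38, 36 had a probe set with their symbol among the 19494 genes tested. Acsl1 and Etfb were unnamed in the annotation used and were not analysed here. The 50 arrays held colon RNA of 1 mouse each in 10 groups of 5. FADD is the adaptor that recruits caspase-8 to death receptors, caspase-8 starts apoptosis and restrains necroptosis, and IEC-KO marks deletion in intestinal epithelial cells.

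Title numbers 1 to 30, called the first number series here, held FADD IEC-KO mice with Zbp1 -/-, with Mlkl -/- or with neither, CASP8 IEC-KO mice with or without Mlkl -/-, and Fadd fl/fl mice. Title numbers 86 to 124, the second series, held FADD IEC-KO RIPK3 IEC-KO, FADD IEC-KO, CASP8 IEC-KO and Casp8 fl/fl mice. Zbp1 -/- and Mlkl -/- remove the nucleic acid sensor ZBP1 and the membrane-breaking effector of necroptosis, MLKL, in all cells, whereas the RIPK3 kinase was removed in the epithelium only. The floxed mice carry unrecombined alleles, the Cre driver is not named in the labels, and CASP8 IEC-KO mice of the first series had only Fadd fl/fl mice as floxed controls. Likewise, FADD IEC-KO and FADD IEC-KO RIPK3 IEC-KO mice of the second series had only Casp8 fl/fl mice. The mice were 10 to 12 weeks old by the study's design text, were kept on chow under a 12-hour light cycle, and the time of day of collection is not given. The labels do not say whether the number series are batches, so contrasts were taken within a series, except that Casp8 fl/fl against Fadd fl/fl crosses the series and CASP8 IEC-KO against FADD IEC-KO averages both. RNA came from whole colon tissue, so fewer cells of a type and less RNA per cell cannot be told apart in any value below.

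In background terms, long-chain fatty acids are bound and taken up with the help of CD36 and fatty acid binding proteins, activated to acyl-CoA, carried into mitochondria by the carnitine shuttle, and shortened step by step by dehydrogenases, hydratases and thiolases. Peroxisomes run a parallel spiral for very long chains, and the acetyl-CoA made can be turned into ketone bodies. PPAR-alpha, PPAR-gamma and the coactivator PGC-1-alpha (Ppargc1a) raise transcription of many of these genes in liver, muscle, fat and gut. Colonocytes are known for using butyrate from gut bacteria as their main fuel.

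PPARs bind DNA with the retinoid X receptor at a direct repeat of AGGTCA-like core motifs spaced by 1 base. The promoters of members that the results turn on, and of the only member with such a repeat, are shown from RefSeq on GRCm38.p6. Each runs from 250 bases before to 50 bases after a start annotated for the gene. Cd36 spans 17781690 to 17888959 and Ppargc1a 51454249 to 52115853, so their windows lie inside the gene. Their outermost starts are not shown. Capitals mark a match to the repeat AGGNCANAGGNCA or to its core AGGTCA, searched on both strands.
Fabp1, chr6:71199629-71199928, plus strand: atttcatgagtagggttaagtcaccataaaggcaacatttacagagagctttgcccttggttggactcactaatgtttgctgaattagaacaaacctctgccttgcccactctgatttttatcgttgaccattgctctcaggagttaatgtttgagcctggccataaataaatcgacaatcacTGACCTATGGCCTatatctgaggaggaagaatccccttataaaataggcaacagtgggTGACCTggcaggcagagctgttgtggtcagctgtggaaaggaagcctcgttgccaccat
Cd36, chr5:17835847-17836146, minus strand: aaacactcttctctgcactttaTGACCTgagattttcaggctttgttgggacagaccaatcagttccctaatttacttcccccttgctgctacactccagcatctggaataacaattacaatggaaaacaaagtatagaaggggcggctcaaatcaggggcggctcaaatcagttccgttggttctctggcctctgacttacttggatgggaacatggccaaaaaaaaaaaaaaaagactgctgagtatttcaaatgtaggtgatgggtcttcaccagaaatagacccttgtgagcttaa
Pdk4, chr6:5496229-5496528, minus strand: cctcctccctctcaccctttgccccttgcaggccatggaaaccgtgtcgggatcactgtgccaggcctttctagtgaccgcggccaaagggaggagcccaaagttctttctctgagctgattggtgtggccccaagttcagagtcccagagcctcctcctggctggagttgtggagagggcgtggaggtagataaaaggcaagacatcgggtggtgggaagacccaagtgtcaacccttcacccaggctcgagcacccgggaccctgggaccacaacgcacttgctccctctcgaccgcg
Ppargc1a, chr5:51567676-51567975, minus strand: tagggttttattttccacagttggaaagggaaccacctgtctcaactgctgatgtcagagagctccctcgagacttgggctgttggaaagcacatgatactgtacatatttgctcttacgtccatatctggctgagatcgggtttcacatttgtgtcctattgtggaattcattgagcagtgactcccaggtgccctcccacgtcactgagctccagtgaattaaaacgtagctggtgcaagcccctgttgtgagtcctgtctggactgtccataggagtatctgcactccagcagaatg
Of the 38 members, 31 were in the promoter table, with 35 promoters. The strict repeat AGGTCANAGGTCA was in 13 of all 32851 promoters (0.0396%) and in none of the members'. The looser repeat AGGNCANAGGNCA was in 125 promoters (0.381%) and among members only in that of Fabp1, where it begins at position -67 (the base before the start being -1) on the strand opposite to the gene and overlaps a core AGGTCA. The core was in 9 of the 35 member promoters, against 16.3% of all promoters. The Cd36 window shown holds it at -228 from the start used. The windows of Pdk4 and Ppargc1a shown held none of these letters. An element of the estrogen-related receptors, TCAAGGTCA, was in 0.423% of promoters and in no member's. Matches are descriptions of letters, and sites outside the windows were not searched.

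Signals are log2 values, so a difference of 1 is a doubling, and no probe's level was set against another's. The spread within groups had a median SD of 0.176 over the 36 members, close to 0.192 over all genes. In 29 of the 36 members the 10 group means lay within 0.5 of each other, and only Cd36 and Dgat2 had group means more than 1 apart. Fabp1, the liver-type fatty acid binding protein, read 2.04 to 3.36 on the 50 arrays, near the lowest value of the table (1.18), so its differences carry little information. Acot1 and Acot2, thioesterases that free fatty acids from acyl-CoA, are close paralogs, and probes shared between them cannot be told apart here.

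The deleted genes fitted the labels where the probe sets could show it. Fadd read 5.83 to 6.50 on the 25 arrays labelled FADD IEC-KO against 7.12 to 7.95 on the other 25, Casp8 8.60 to 9.48 on the 15 labelled CASP8 IEC-KO against 9.90 to 10.96 on the other 35, and Mlkl 7.00 to 7.56 on the 10 labelled Mlkl -/- against 7.85 to 9.56 on the other 40. Zbp1 and Ripk3 overlapped between deleted and other arrays. Array medians were 6.41 to 6.47. Precision is limited by the number of arrays. The tissue carried colonocyte markers, with a mean of 11 genes (Car1, Slc26a3, Aqp8 and others) of 9.15 or more on every array. FADD IEC-KO arrays differed widely from each other. In the first series their mean of 13 neutrophil markers was 4.70 to 8.43, against 4.38 to 4.52 in Fadd fl/fl, and the highest 2 were arrays 22 and 23. It was 4.46 to 7.34 in the second series, with array 117 highest, against 4.50 to 4.73 in Casp8 fl/fl. Array 124 came next at 5.81, and its smooth muscle (9.10) and colonocyte (9.79) means lay below the Casp8 fl/fl arrays. Counts of members, other lists and markers in contrasts with FADD IEC-KO are also given without arrays 22 and 23 or without array 117. Array 124 stays in those counts. The choice was made after the data were seen.

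The mean of all 36 members on an array moved little. It was 8.18 ± 0.16 (SD, n = 5) in FADD IEC-KO against 8.26 ± 0.03 in Fadd fl/fl in the first series, and 8.22 ± 0.10 in FADD IEC-KO against 8.26 ± 0.06 in Casp8 fl/fl in the second. In the first series the FADD IEC-KO arrays read 8.28, 7.92, 8.20, 8.18 and 8.32, with array 22 below every other array of the study. All other groups averaged 8.25 to 8.32. The changes that passed the test lay in single members.

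**Figure D1:**
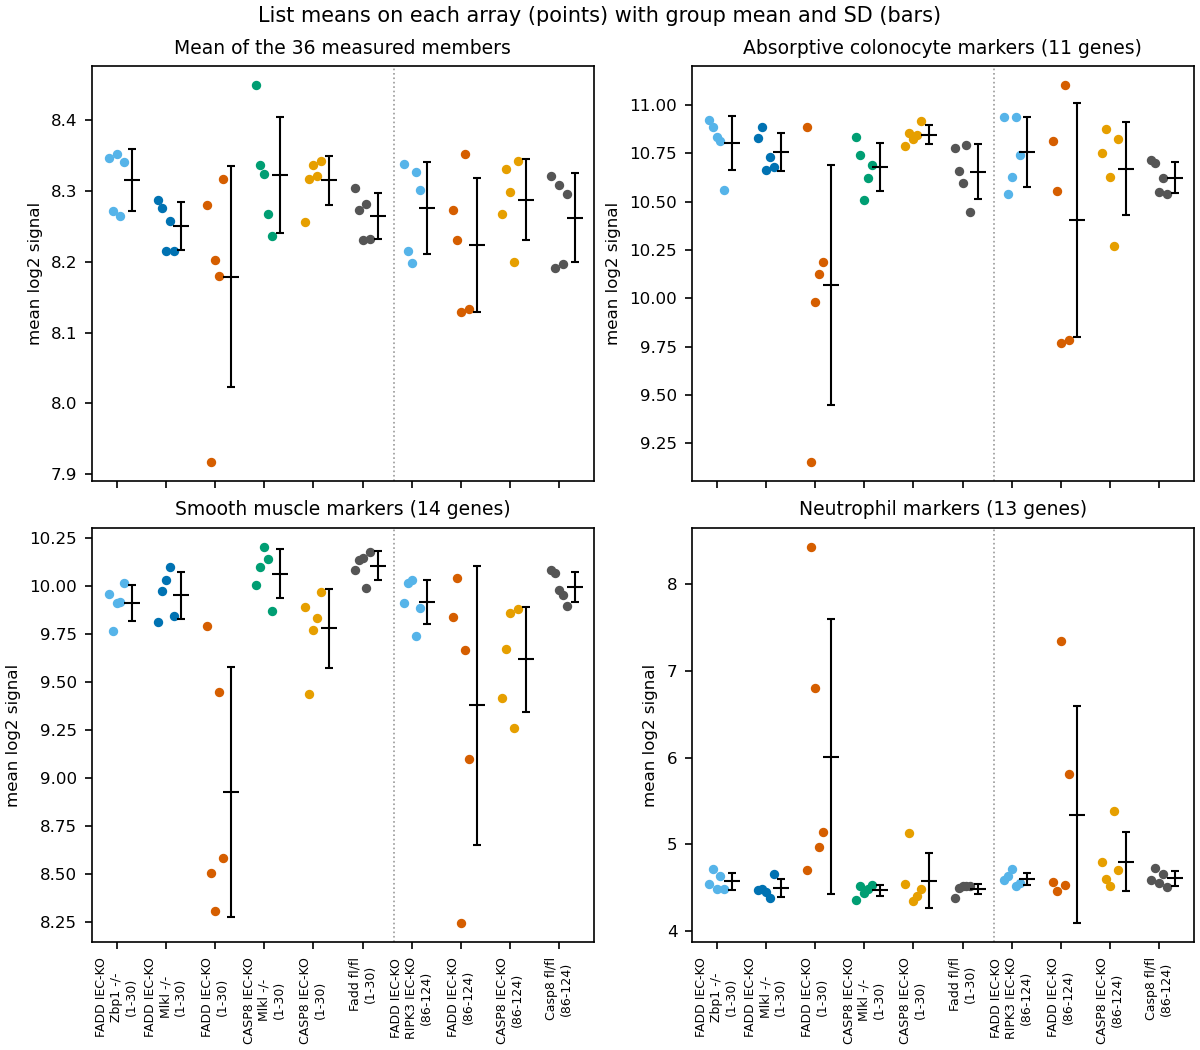
Mean log2 signal on each array (points), with group mean and SD (bars), for the 36 members and for colonocyte, smooth muscle and neutrophil markers; the dotted line divides title numbers 1 to 30 from 86 to 124. The member mean falls to 7.92 on FADD IEC-KO array 22, and in the 3 marker panels the FADD IEC-KO groups have the widest SDs.

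The first question was what loss of FADD in the epithelium did to these genes. In the first series, colons of FADD IEC-KO mice had lower Ppargc1a, Cd36, Pdk4, Acaa2, Plin2 and Acadm and higher Dgat2, Acsl5, Bdh1 and Acadl than Fadd fl/fl colons. That is 10 of 36 members past an adjusted p of 0.05 (4 higher, 6 lower; limma, Benjamini-Hochberg over all genes), or 27.8%, where 18.7% of all genes passed (8.59% higher, 10.1% lower). The median difference of the members was -0.07, against -0.02 over all genes. Against Casp8 fl/fl in the second series 7 of 36 members passed (19.4%), with Acsl5 higher and Cd36, Pdk4, Acadvl, Acaa1b, Hadhb and Hadha lower, where 11.0% of all genes passed (6.8% higher, 4.25% lower). Of the 36 members, 5 did not overlap between the groups in the first series, where 9.2% of all genes did not, and 7 in the second, where 6.99% did not. The median difference was -0.06, against -0.03 over all genes. The test carries the spread shared by all 10 groups, although FADD IEC-KO arrays varied most.

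Cd36, the fatty acid translocase that also marks macrophages, fat and vessels, fell in both series. It read 6.21, 4.86, 5.52, 5.77 and 4.83 in FADD IEC-KO of the first series, against 6.60, 6.20, 6.38, 6.11 and 6.70 in Fadd fl/fl. The groups overlap only through FADD IEC-KO array 21, and the difference was -0.96 (SE 0.25, adjusted p 0.00583), 0.513 of the floxed level. The second series gave 6.32, 6.32, 4.79, 5.80 and 5.72 in FADD IEC-KO, against 7.36, 6.44, 6.65, 6.82 and 6.91 in Casp8 fl/fl. Here the groups did not overlap, and the difference was -1.05 (SE 0.25, adjusted p 0.00507). Its lowest FADD IEC-KO array of the second series was 117, the highest for neutrophil markers. Its lowest in the first series were array 25, at 4.83 with a neutrophil mean of 5.14, and array 22, at 4.86 with a mean of 8.43, and both neutrophil means lay above the Fadd fl/fl range. In the second series array 120, with Cd36 at 5.80, had a neutrophil mean of 4.52, inside the Casp8 fl/fl range. Adipocyte marker means there were 5.38 to 5.75 in FADD IEC-KO and 5.48 to 6.71 in Casp8 fl/fl. Casp8 fl/fl array 86 was the highest of its group for both adipocyte markers and Cd36. In the first series adipocyte means were 5.21 to 5.97 in FADD IEC-KO and 5.37 to 5.66 in Fadd fl/fl. The part of these cells was not tested.

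Pdk4 encodes the kinase that shuts pyruvate dehydrogenase and spares glucose when fat is burned, and is a classical PPAR target. It read 6.71, 6.10, 6.02, 6.27 and 6.30 in FADD IEC-KO of the first series, against 6.92, 7.30, 7.15, 6.78 and 6.66 in Fadd fl/fl. Only FADD IEC-KO array 21 reached into the floxed range, and the difference was -0.68 (SE 0.15, adjusted p 0.0017). The second series gave 6.28, 7.14, 6.69, 6.54 and 6.62 in FADD IEC-KO, against 6.94, 7.05, 7.36, 7.20 and 7.13 in Casp8 fl/fl. The difference was -0.48 (SE 0.15, adjusted p 0.0351), with array 95 inside the floxed range. With 1 array left out at a time, this call was kept in 3 of 10 cases.

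Ppargc1a, the coactivator of mitochondrial biogenesis, read 10.01, 8.50, 9.05, 9.59 and 9.63 in FADD IEC-KO of the first series, against 10.04, 10.65, 10.55, 10.21 and 10.32 in Fadd fl/fl. The groups did not overlap, and the level was 0.501 of that in Fadd fl/fl (a fall of 1.00 on the log2 scale, SE 0.19, adjusted p 0.000282). For the second series the values were 9.94, 10.38, 9.49, 9.84 and 9.61 in FADD IEC-KO, against 10.50, 9.67, 10.15, 9.78 and 10.04 in Casp8 fl/fl. These overlapped, and the difference of -0.17 (SE 0.19) did not pass. The difference between the series was itself tested and did not pass for any member, where 0.123% of all genes passed. That test mixes series with floxed line, since the controls were of different lines.

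The receptors behaved otherwise. Ppara, the receptor best known for fasting-induced fat oxidation in liver, read 6.64, 5.75, 6.36, 6.57 and 6.06 in FADD IEC-KO of the first series, against 6.44, 6.72, 6.35, 6.40 and 6.70 in Fadd fl/fl, with a difference of -0.24 (SE 0.12, adjusted p 0.174). Its difference in the second series was 0.05 (SE 0.12, adjusted p 0.83). Pparg, the receptor of fat cells that is also strong in colonocytes, read 8.61, 8.64, 8.67, 8.87 and 9.09 in FADD IEC-KO of the first series, against 8.57, 8.57, 8.41, 8.90 and 8.11 in Fadd fl/fl. Its differences were 0.26 (SE 0.14, adjusted p 0.176) and 0.29 (SE 0.14, adjusted p 0.158) in the first and second series.

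Acsl5 rose in both series and Dgat2 in the first. Acsl5, an acyl-CoA synthetase abundant in gut epithelium, read 9.25, 9.57, 9.51, 9.63 and 9.34 in FADD IEC-KO of the first series, against 9.18, 8.94, 9.01, 9.12 and 9.15 in Fadd fl/fl. In the second it read 9.39, 9.39, 9.66, 9.70 and 9.56 in FADD IEC-KO, against 9.00, 8.75, 9.11, 9.18 and 9.33 in Casp8 fl/fl. Every FADD IEC-KO array lay above every floxed one in both series, with differences of 0.38 (SE 0.09, adjusted p 0.00175) and 0.47 (SE 0.09, adjusted p 0.000385). Dgat2, which catalyses the last step of triglyceride synthesis, read 8.28, 8.93, 8.74, 8.25 and 8.94 in FADD IEC-KO of the first series, against 7.92, 7.83, 8.10, 7.91 and 6.87 in Fadd fl/fl. The groups did not overlap and the level was 1.87-fold that of Fadd fl/fl (log2 difference 0.90, SE 0.22, adjusted p 0.00334). The difference in the second series was 0.53 (SE 0.22, adjusted p 0.113), with FADD IEC-KO arrays from 7.34 to 8.73 and Casp8 fl/fl arrays from 6.99 to 8.29. Plin2, a coat protein of lipid droplets, fell by 0.43 (SE 0.14, adjusted p 0.0256) in the first series, with 8.62 to 9.56 in FADD IEC-KO against 9.36 to 9.74 in Fadd fl/fl.

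Of 6 dehydrogenases and electron carriers of the mitochondrial spiral, 1 rose and 1 fell in the first series and 1 fell in the second. Of 8 later spiral and auxiliary enzymes, 7 lay below 0 in each series (medians -0.16 and -0.11), of which 1 passed in the first and 2 in the second. Cpt1a, the entry step of the carnitine shuttle, read 9.69, 9.29, 9.39, 9.19 and 9.78 in FADD IEC-KO of the first series, against 9.47, 9.51, 9.46, 9.78 and 9.59 in Fadd fl/fl, a difference of -0.09 (SE 0.11, adjusted p 0.614). None of Cpt1a, Cpt2 and Slc25a20, the 3 shuttle members, passed in either series. Acaa2, the mitochondrial thiolase, read 9.45, 8.30, 9.01, 8.90 and 9.00 in FADD IEC-KO against 9.43, 9.39, 9.34, 9.42 and 9.35 in Fadd fl/fl, and fell by 0.46 (SE 0.15, adjusted p 0.0308), with array 21 above every floxed array. The medium-chain dehydrogenase Acadm fell by 0.26 (SE 0.09, adjusted p 0.037) without overlap, whereas the long-chain dehydrogenase Acadl rose by 0.29 (SE 0.08, adjusted p 0.00582). Bdh1, which interconverts the ketone bodies acetoacetate and hydroxybutyrate, read 8.96, 8.58, 9.02, 9.07 and 9.00 in FADD IEC-KO. In Fadd fl/fl it read 8.83, 8.66, 8.75, 8.45 and 8.40, so that it rose by 0.31 (SE 0.10, adjusted p 0.0336). With 1 array left out at a time, this call was kept in 4 of 10 cases.

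In the second series Acadvl, Hadha, Hadhb and Acaa1b fell, whereas Acadl, Cpt1a, Cpt2 and Slc25a20 did not pass. Acadvl, the very-long-chain dehydrogenase, read 8.43, 8.32, 8.44, 8.39 and 8.35 in FADD IEC-KO, against 8.71, 8.76, 8.50, 8.81 and 8.68 in Casp8 fl/fl. The groups did not overlap, and it fell by 0.30 (SE 0.07, adjusted p 0.00388). Hadha and Hadhb, the 2 subunits of the mitochondrial trifunctional protein, fell by 0.23 (SE 0.08, adjusted p 0.0472) and 0.28 (SE 0.09, adjusted p 0.0441). Hadha read 10.33, 10.23, 10.21, 10.35 and 10.07 in FADD IEC-KO, against 10.44, 10.36, 10.48, 10.55 and 10.53 in Casp8 fl/fl, with no overlap. Acaa1b, a peroxisomal thiolase, fell by 0.29 (SE 0.09, adjusted p 0.023). In the first series the differences of Acadvl, Hadha, Hadhb and Acaa1b were 0.13, -0.07, -0.19 and 0.04, and none passed. For Acadvl the difference between the series was 0.43 (SE 0.10, adjusted p 0.0527), and it passed when the dimmest genes were left out (adjusted p 0.0263) or under quantile normalization (0.0462). Over all alternatives and single arrays left out its adjusted p was 0.0222 to 0.434, with 0.434 from the compared arrays alone, 0.165 with group weights and 0.0618 with the sex covariate. Series and floxed line cannot be told apart in this difference.

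The subunit genes Hadha and Hadhb lie head to head on chromosome 5 with 272 bases between their starts, so their promoter windows share 228 bases. The Hadhb window is shown because both fell in the same samples, with capitals for the stretch that is also in the Hadha window (chr5:30154931-30155230, minus strand).
Hadhb, chr5:30155003-30155302, plus strand: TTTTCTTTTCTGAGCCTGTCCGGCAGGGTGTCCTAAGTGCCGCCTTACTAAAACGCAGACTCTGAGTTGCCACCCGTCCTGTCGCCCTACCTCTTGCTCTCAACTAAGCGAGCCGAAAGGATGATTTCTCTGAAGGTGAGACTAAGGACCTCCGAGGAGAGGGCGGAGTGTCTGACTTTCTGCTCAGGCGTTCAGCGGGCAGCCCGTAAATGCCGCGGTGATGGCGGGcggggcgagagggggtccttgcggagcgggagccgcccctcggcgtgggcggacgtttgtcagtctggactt
It held none of the motifs above.

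Of the 14 members that passed in either series, 3 (Cd36, Pdk4 and Acsl5) passed in both and 12 had the same direction in both. The matching shares over all genes are not given here, so these counts cannot be read as particular to the members. The 2 contrasts use different arrays on both sides. Smooth muscle, neutrophil, macrophage and colonocyte markers moved with these results. In the first series all 14 smooth muscle markers were lower and 11 of 13 neutrophil and 12 of 13 macrophage markers higher, and smooth muscle means were 8.31 to 9.79 in FADD IEC-KO against 9.99 to 10.18 in Fadd fl/fl. Of the 11 colonocyte markers 2 were higher and 4 lower, with means of 9.15 to 10.89 against 10.45 to 10.80. Of the second series' lists, 5 of 14 smooth muscle markers were lower, 1 of 13 neutrophil and 8 of 13 macrophage markers higher, and 2 of 11 colonocyte markers higher. Colonocyte means there were 9.77 to 11.10 in FADD IEC-KO (average 10.41) against 10.54 to 10.72 in Casp8 fl/fl (average 10.63). Smooth muscle means were 8.24 to 10.04 against 9.90 to 10.08. Of 8 adipocyte markers 1 was lower in each series, of 11 endothelial markers 2 and of 7 fibroblast markers 3. Of 12 pan-epithelial markers 2 were higher in each series. Of 8 goblet cell markers 2 were higher and 2 lower in the first series and 1 and 1 in the second, and of 10 small intestinal enterocyte markers 2 were higher and 1 lower in the first series and 1 higher in the second. The part of these cell types in the member results was not tested.

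Without FADD IEC-KO arrays 22 and 23, only Ppargc1a (lower, -0.61, adjusted p 0.0457) and Bdh1 (higher, 0.39, adjusted p 0.0482) of the 10 passed in the first series, where 3.5% of all genes passed. The differences of the other 8 were then -0.80 for Cd36 (adjusted p 0.107), -0.54 for Pdk4 (0.0756), 0.33 for Acsl5 (0.0562), 0.76 for Dgat2 (0.0822), 0.28 for Acadl (0.0709), -0.38 for Plin2 (0.178), -0.27 for Acaa2 (0.389) and -0.15 for Acadm (0.401). Of the markers, 8 of 14 smooth muscle and 5 of 7 fibroblast markers were then lower, no neutrophil marker passed, and 1 of 13 macrophage markers was higher. With only the compared arrays fitted, 5 of the 10 members passed (Acsl5, Dgat2, Ppargc1a, Pdk4 and Cd36). The share of all genes passing in that fit is not given here, so this count cannot be read as particular to the members. Without array 117, only Acsl5 (0.44), Acadvl (-0.32) and Cd36 (-0.80) of the 7 passed in the second series, where 6.96% of all genes passed. The other 4 then differed by -0.49 (Pdk4, adjusted p 0.0611), -0.23 (Hadha, 0.0962), -0.30 (Hadhb, 0.0538) and -0.28 (Acaa1b, 0.0537). No smooth muscle or neutrophil marker then passed, and 3 of 13 macrophage markers were higher.

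**Figure D2:**
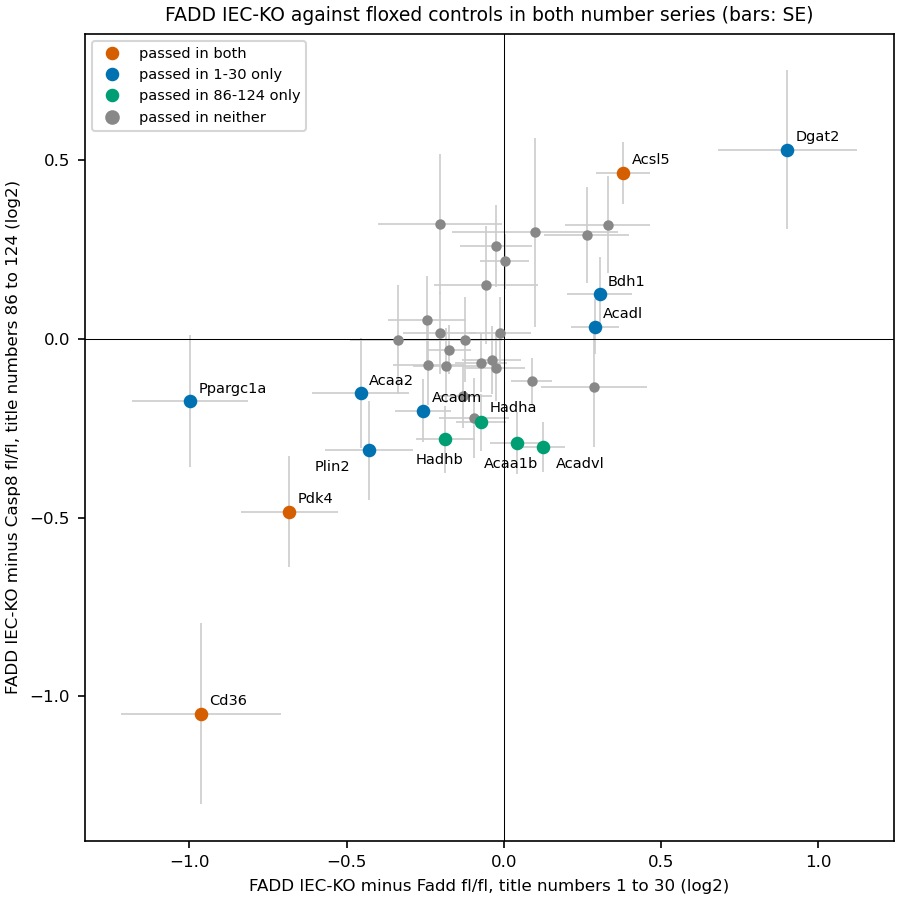
Log2 difference of each of the 36 members between FADD IEC-KO and floxed controls in the first number series (horizontal axis) and the second (vertical axis), with SEs as bars and colours for the series in which the member passed. Cd36 and Pdk4 lie low and Acsl5 high on both axes, Ppargc1a is low in the first series only by the test, and most members lie near 0.

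Genes of the same pathways outside the list were counted next. Of 17 further mitochondrial acyl-CoA and carnitine genes, 5 fell and none rose in FADD IEC-KO of the first series, and 2 fell in the second. Acad12, an acyl-CoA dehydrogenase family member, fell by 0.57 (adjusted p 0.0105) and 0.56 (adjusted p 0.0185), and Acadsb, the short/branched-chain dehydrogenase, by 0.25 (adjusted p 0.0203) and 0.29 (adjusted p 0.0115). Of 20 further peroxisomal genes, 2 rose in the first series, and 1 rose and 1 fell in the second. Of 12 genes of ketone body and butyrate use, 3 rose and 2 fell in the first series and 1 rose and 2 fell in the second. The monocarboxylate carriers moved apart: Slc16a6 rose by 1.27 (adjusted p 0.000198) and 0.82 (adjusted p 0.0132), whereas Slc16a7 fell by 1.00 (adjusted p 0.00176) and 0.73 (adjusted p 0.0289). Slc16a1, the butyrate and lactate carrier MCT1, fell by 0.41 in the first series (adjusted p 0.00717).

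Among 21 further PPAR receptors and partners, 1 rose and 8 fell in FADD IEC-KO of the first series, including the nuclear receptors Hnf4g (-0.60, adjusted p 0.00142) and Rxrg (-0.55, adjusted p 0.0022) and the deacetylase Sirt1 (-0.46, adjusted p 0.00351). Of these 21 genes 2 rose and 1 fell in the second series, the one that fell being Hnf4g (-0.42, adjusted p 0.034). Of 26 other known PPAR targets, 3 rose and 4 fell in the first series and 2 rose and 3 fell in the second. Of 15 further uptake and activation genes, 4 rose and 1 fell in the first series and 3 rose and 1 fell in the second. Cav1, a caveolae protein of vessels, muscle and fat that acts with CD36 at the membrane, fell by 1.08 in the first series (adjusted p 0.000337). Of 20 further lipid droplet and triglyceride genes, 1 rose and 1 fell in the first series and 2 rose in the second. Background shares are the 18.7% and 11.0% given above. Without arrays 22 and 23, where 3.5% of all genes passed, the counts in the first series were none of the 17 mitochondrial genes, 1 higher of 20 peroxisomal, 1 higher and 1 lower of 12 ketone body and butyrate genes, none of the 21 receptors and partners, 1 lower of 26 other PPAR targets, 1 higher and 1 lower of 15 uptake genes and none of the 20 lipid droplet genes. Of the genes named, Slc16a6 (1.08, adjusted p 0.0199), Slc16a7 (-0.91, 0.0449) and Cav1 (-0.80, 0.0408) then passed, and Acad12 (-0.35, 0.243), Acadsb (-0.13, 0.409), Slc16a1 (-0.27, 0.197), Hnf4g (-0.48, 0.0673), Rxrg (-0.35, 0.0893) and Sirt1 (-0.35, 0.1) did not. Without array 117 Acad12 (-0.54, adjusted p 0.046), Acadsb (-0.25, 0.0475) and Slc16a6 (0.80, 0.0351) passed in the second series, and Slc16a7 (-0.47, 0.183) and Hnf4g (-0.30, 0.167) did not. The counts there were 2 lower of 17 mitochondrial genes, 1 higher and 1 lower of 20 peroxisomal, 1 higher of 12 ketone body and butyrate genes, 1 higher of 21 receptors and partners, 2 lower of 26 other PPAR targets, 3 higher of 15 uptake genes and 2 higher of 20 lipid droplet genes.

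Loss of caspase-8 in the epithelium was set against both floxed lines. Against Casp8 fl/fl in the second series 1 of 36 members, Pparg, passed (2.78%), where 2.46% of all genes passed. Pparg read 9.15, 9.15, 8.80, 9.03 and 8.71 in CASP8 IEC-KO, against 8.41, 8.17, 8.72, 7.95 and 8.78 in Casp8 fl/fl, a rise of 0.56 (SE 0.14, adjusted p 0.0216), 1.48-fold. The 2 groups overlap, and the call was lost without any one of CASP8 IEC-KO arrays 87 and 104 and Casp8 fl/fl arrays 91 and 105, where no member passed. Smooth muscle means were 9.26 to 9.88 in CASP8 IEC-KO against 9.90 to 10.08 in Casp8 fl/fl, endothelial means 6.52 to 6.85 against 6.88 to 7.01, and pan-epithelial means 10.74 to 11.01 against 10.54 to 10.77. None of the 14 smooth muscle, 13 neutrophil, 13 macrophage or 8 adipocyte markers passed in limma. Of the other lists, 2 of 11 endothelial, 3 of 7 fibroblast and 1 of 8 goblet cell markers were lower. Higher were 1 of 12 pan-epithelial and 1 of 11 colonocyte markers. CASP8 IEC-KO array 104 had a neutrophil mean of 5.38, a macrophage mean of 7.72 and a colonocyte mean of 10.27. The Casp8 fl/fl ranges of these 3 means were 4.50 to 4.73, 6.97 to 7.23 and 10.54 to 10.72. The part of these cell types was not tested. Cd36 read 6.12, 5.56, 6.49, 5.79 and 6.21 in CASP8 IEC-KO, against the Casp8 fl/fl values above, a difference of -0.80 (SE 0.25, adjusted p 0.0719). Adipocyte means were 5.34 to 5.97 in CASP8 IEC-KO and 5.48 to 6.71 in Casp8 fl/fl, and their part was not tested. Dgat2 read 8.33, 8.39, 8.23, 8.76 and 8.13 in CASP8 IEC-KO against 8.29, 7.07, 8.10, 6.99 and 7.74 in Casp8 fl/fl, a difference of 0.73 (SE 0.22, adjusted p 0.0595).

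In the first series no member passed between CASP8 IEC-KO and Fadd fl/fl in limma, where 0.123% of all genes passed, and 6 of 36 members had an unadjusted p under 0.05, against 11.7% of all genes. Pparg read 9.29, 9.17, 8.69, 9.10 and 8.82 in CASP8 IEC-KO against the Fadd fl/fl values above, a difference of 0.50 (SE 0.14, adjusted p 0.116). Cd36 read 6.71, 6.54, 6.57, 6.56 and 6.72 in CASP8 IEC-KO, a difference of 0.22 (SE 0.25, adjusted p 0.774). Dgat1 alone of the 36 members did not overlap (higher in CASP8 IEC-KO), where 2.71% of all genes did not; in the second series no member was without overlap, where 2.93% of all genes were. Floxed line and series cannot be told apart, since each line was in 1 series. In that contrast across the series, no member passed between Casp8 fl/fl and Fadd fl/fl mice in limma, where 0.0359% of all genes passed, and 2 of 36 members had an unadjusted p under 0.05, against 10.1% of all genes.

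Set against each other over both series, CASP8 IEC-KO had higher Cd36, Pdk4, Plin2 and Acadm than FADD IEC-KO. These were 4 of 36 members (11.1%), where 5.13% of all genes passed (2.13% higher, 3% lower), and the median difference of the members was 0.10, against 0.01 over all genes. Cd36 was higher by 0.71 (SE 0.18, adjusted p 0.0139), made of 1.18 in the first series and 0.25 in the second. Pdk4 was higher by 0.37 (SE 0.11, adjusted p 0.0381), with 0.49 and 0.25 in the first and second series, Plin2 by 0.33 (SE 0.10, adjusted p 0.0365), with 0.39 and 0.28, and Acadm by 0.27 (SE 0.06, adjusted p 0.00849), with 0.34 and 0.20. Smooth muscle markers were higher on the same comparison in 11 of 14 and neutrophil and macrophage markers lower in 7 and 11 of 13, colonocyte markers were higher in 4 of 11 and goblet cell markers lower in 5 of 8, and their part was not tested. With only the compared arrays fitted none of the 4 passed. None passed without FADD IEC-KO arrays 22 and 23, where 0.693% of all genes passed and the differences were 0.63 for Cd36 (adjusted p 0.112), 0.30 for Pdk4 (0.246), 0.31 for Plin2 (0.169) and 0.22 for Acadm (0.0871). No smooth muscle, neutrophil or macrophage marker then passed. Without array 117 only Acadm of the 4 passed (0.26, adjusted p 0.0244), with 0.59 for Cd36 (0.0515). Of the markers, 2 of 14 smooth muscle markers were then higher and 1 of 13 neutrophil and 8 of 13 macrophage markers lower. The shares of all genes passing without array 117 and with only the compared arrays are not given here. The counts under these settings cannot be read as particular to the members.

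**Figure D3:**
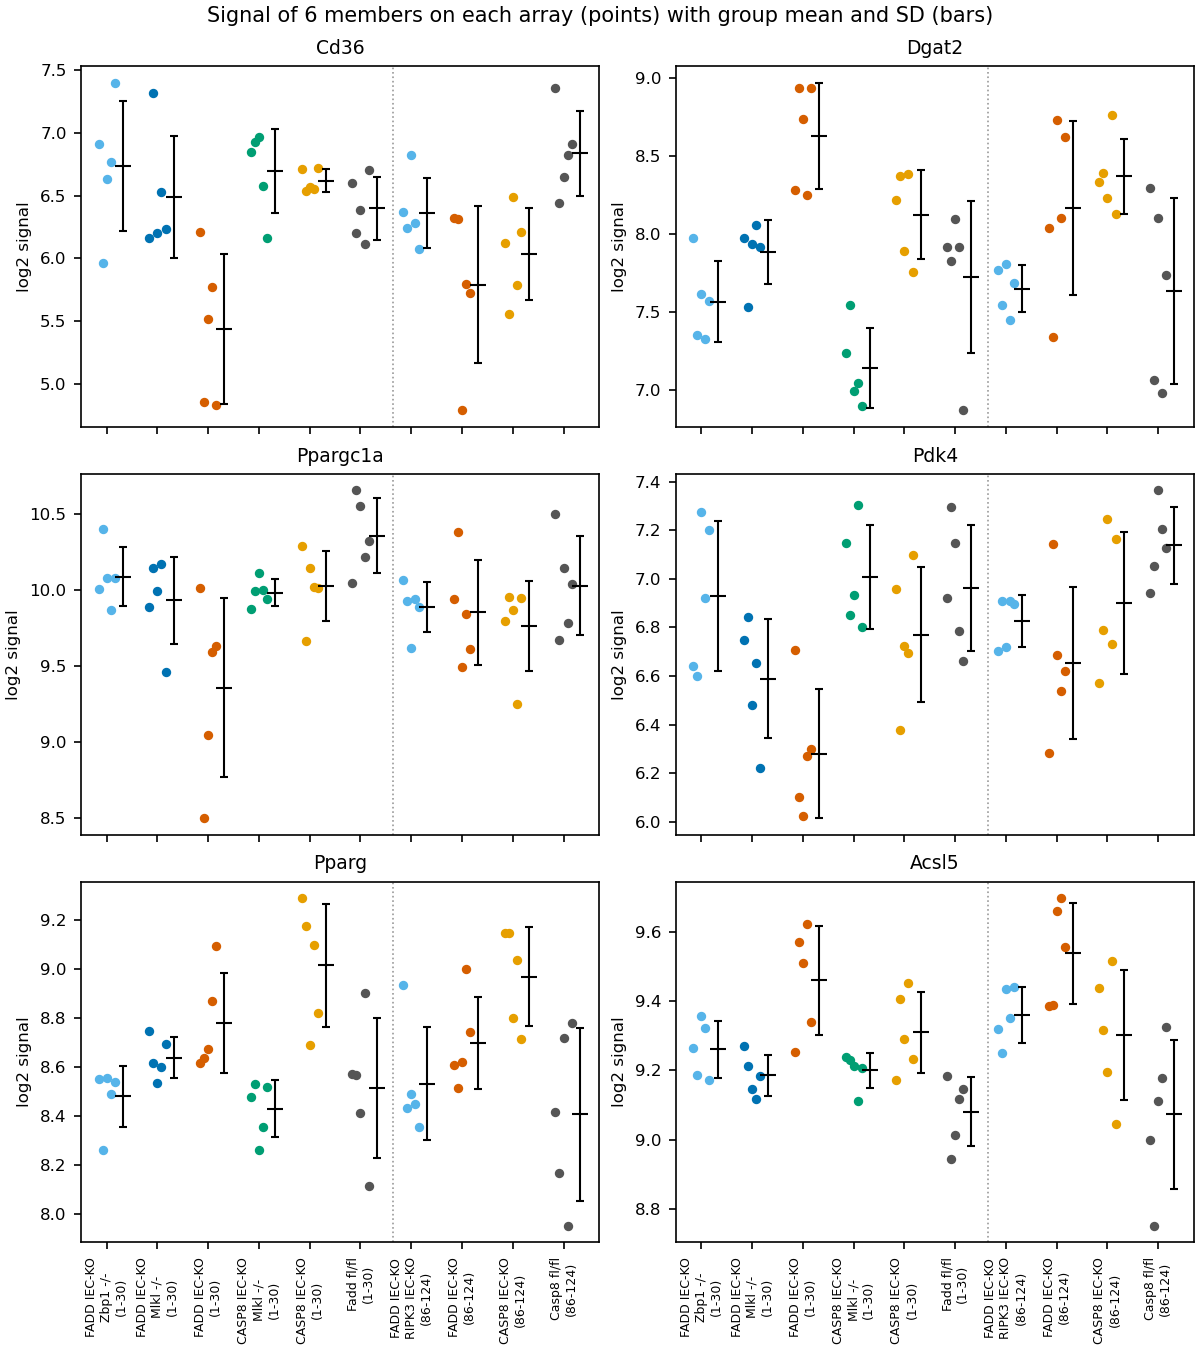
Log2 signal of 6 members on each array (points) with the group mean and SD (bars), groups of title numbers 1 to 30 left of the dotted line and 86 to 124 right of it. Cd36, Pdk4 and Ppargc1a reach their lowest values on FADD IEC-KO arrays, Acsl5 is highest there, and Dgat2 has its lowest group mean in CASP8 IEC-KO Mlkl -/-.

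The next question was whether removing a necroptosis gene along with Fadd or Casp8 changed these members. Every contrast below against FADD IEC-KO shares its 5 arrays of that group and series with the FADD IEC-KO contrasts above. FADD IEC-KO Zbp1 -/- colons had higher Cd36, Ppargc1a, Pdk4, Ehhadh, Decr1 and Etfdh and lower Dgat2 than FADD IEC-KO. These are 7 of 36 (19.4%; 6 higher, 1 lower), where 10.8% of all genes passed (5.61% higher, 5.14% lower), with a median difference of 0.11 against 0.01 over all genes. Cd36 read 6.92, 5.97, 6.63, 6.77 and 7.40 in FADD IEC-KO Zbp1 -/-, 2.46-fold the FADD IEC-KO level (log2 difference 1.30, SE 0.25, adjusted p 0.00126), with array 2 below FADD IEC-KO array 21. Dgat2 read 7.97, 7.35, 7.62, 7.33 and 7.57, all below the FADD IEC-KO arrays, a fall of 1.06 (SE 0.22, adjusted p 0.00204).

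Ppargc1a read 10.00, 10.40, 10.08, 9.87 and 10.08 in FADD IEC-KO Zbp1 -/-, higher by 0.73 (SE 0.19, adjusted p 0.0089), with FADD IEC-KO array 21 among them. Pdk4 read 6.64, 6.60, 7.27, 6.92 and 7.20, higher by 0.65 (SE 0.15, adjusted p 0.00575). Etfdh, which passes electrons from the dehydrogenases to the respiratory chain, read 9.13, 9.25, 9.15, 9.09 and 9.32 in FADD IEC-KO Zbp1 -/- against 8.92, 8.63, 8.72, 8.86 and 9.01 in FADD IEC-KO. Its groups did not overlap, and it rose by 0.36 (SE 0.07, adjusted p 0.00113). Decr1, which clears double bonds of unsaturated fatty acids, read 8.03, 7.79, 7.98, 7.87 and 7.82 against 7.54, 6.98, 7.55, 7.77 and 7.79 in FADD IEC-KO, and rose by 0.37 (SE 0.11, adjusted p 0.018). Ehhadh, the peroxisomal bifunctional enzyme and a PPAR-alpha target in liver, read 8.00, 8.24, 7.90, 8.17 and 8.11 against 7.73, 7.04, 7.89, 7.90 and 7.81 in FADD IEC-KO, and rose by 0.41 (SE 0.12, adjusted p 0.021), with the lowest Zbp1 -/- array level with the highest FADD IEC-KO array. Of the other pathway lists, 2 of 17 mitochondrial genes rose (Crat, 0.31, adjusted p 0.0254, and Acadsb, 0.26, adjusted p 0.0259), 1 of 20 peroxisomal genes rose and 2 fell, and 4 of 21 PPAR receptors and partners rose. Among the 12 ketone body and butyrate genes 2 rose and 3 fell, with Slc16a7 higher by 0.79 (adjusted p 0.0187), Slc16a1 by 0.41 (adjusted p 0.0116), and Slc16a3, a lactate exporter, lower by 0.74 (adjusted p 0.00916). Of the 26 other PPAR targets 2 rose and 1 fell, of the 15 uptake genes 1 rose and 1 fell, and of the 20 lipid droplet genes 1 rose and 2 fell.

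Loss of MLKL in FADD IEC-KO mice changed 3 of 36 members (8.33%; 1 higher, 2 lower), where 5.85% of all genes passed (2.91% higher, 2.93% lower), and the median difference was 0.10 against 0.01 over all genes. Cd36 read 6.17, 7.32, 6.21, 6.53 and 6.23 in FADD IEC-KO Mlkl -/-, higher by 1.05 (SE 0.25, adjusted p 0.00949), with 6.17 on array 11 below FADD IEC-KO array 21. Dgat2 read 7.97, 7.53, 7.94, 8.06 and 7.92, all below the FADD IEC-KO arrays, a fall of 0.74 (SE 0.22, adjusted p 0.0344). Acsl5 read 9.27, 9.21, 9.15, 9.12 and 9.18, a fall of 0.27 (SE 0.09, adjusted p 0.0467). The Acsl5 call was kept under 2 of 8 alternatives and 2 of 10 removals of single arrays, the Dgat2 call under 6 and 3. Dgat2 was the 1 member without overlap, where 4.29% of all genes did not overlap; with Zbp1 loss there were 4 (Etfdh, Decr1, Pparg and Dgat2), where 5.8% of all genes did not. Of the other pathway lists, none of the 17 mitochondrial genes passed with Mlkl loss (limma), 1 of 20 peroxisomal genes fell (Scp2, -0.41, adjusted p 0.00563), and of the 12 ketone body and butyrate genes 1 rose (Slc16a7, 0.74, adjusted p 0.0412) and 2 fell, Slc16a6 among them (-0.78, adjusted p 0.0301). Marker lists moved with both co-deletions. Of 14 smooth muscle markers 13 were higher with Zbp1 loss and 14 with Mlkl loss, of 13 neutrophil markers 10 and 9 were lower, and of 11 colonocyte markers 6 rose and 1 fell with Zbp1 loss and 3 rose with Mlkl loss. Of 13 macrophage markers 2 were lower with Zbp1 loss and 5 with Mlkl loss, with means of 7.32 to 7.85 and 7.21 to 7.56, against 7.44 to 8.62 in FADD IEC-KO. Of 11 endothelial markers 2 rose with Zbp1 loss, with means of 6.81 to 7.17 against 6.45 to 6.82, and none passed with Mlkl loss (6.70 to 6.91). None of the 8 adipocyte markers passed with either loss in limma. Among the arrays of these 3 groups their mean was highest on FADD IEC-KO Zbp1 -/- array 5 (6.58), the array with the highest Cd36 (7.40). The part of these cell types was not tested.

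Without FADD IEC-KO arrays 22 and 23 no member passed with either loss, where 0.621% of all genes passed with Zbp1 loss and 0.041% with Mlkl loss. With Zbp1 loss the differences were then 1.13 for Cd36 (adjusted p 0.0509), -0.92 for Dgat2 (0.073), 0.50 for Pdk4 (0.158), 0.26 for Etfdh (0.0814), 0.34 for Ppargc1a (0.391), 0.27 for Ehhadh (0.265) and 0.20 for Decr1 (0.391). With Mlkl loss they were 0.89 for Cd36 (adjusted p 0.217), -0.61 for Dgat2 (0.383) and -0.22 for Acsl5 (0.426). Of the other pathway lists 1 gene, among the other PPAR targets, passed with Zbp1 loss and none with Mlkl loss, and of the markers 1 smooth muscle and 1 fibroblast marker passed with Zbp1 loss and none with Mlkl loss. With Zbp1 loss Slc16a7 then differed by 0.71 (adjusted p 0.188), Slc16a1 by 0.28 (0.258), Slc16a3 by -0.39 (0.332), Crat by 0.21 (0.333) and Acadsb by 0.14 (0.44). With Mlkl loss Scp2 differed by -0.43 (adjusted p 0.103), Slc16a7 by 0.65 (0.355) and Slc16a6 by -0.59 (0.408). Without array 22 alone 4 members passed with Zbp1 loss (Etfdh, Pdk4, Cd36 and Dgat2) and none with Mlkl loss. The shares of all genes passing without array 22 are not given here, so these counts cannot be read as particular to the members.

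Epithelial loss of RIPK3 in FADD IEC-KO mice of the second series changed 2 of 36 members (5.56%), both higher, where 0.754% of all genes passed. The median difference of the members was 0.09, against 0.01 over all genes. Both had passed as lower in FADD IEC-KO than in Casp8 fl/fl, on the same 5 FADD IEC-KO arrays. Acadvl read 8.77, 8.69, 8.59, 8.75 and 8.69 with RIPK3 loss, against the 8.32 to 8.44 of FADD IEC-KO, with a rise of 0.31 (SE 0.07, adjusted p 0.0288). Hadha read 10.57, 10.49, 10.44, 10.63 and 10.61, against 10.07 to 10.35 in FADD IEC-KO, with a rise of 0.31 (SE 0.08, adjusted p 0.0443). The groups did not overlap for either gene. Of the other members without overlap, Echs1, the enoyl-CoA hydratase, was lower but did not pass, and 3.28% of all genes did not overlap. Both calls were lost with 1 array less: no member passed without FADD IEC-KO array 117 or 124, or without any one of FADD IEC-KO RIPK3 IEC-KO arrays 88, 93, 113 and 123. Of the marker lists, 1 of 13 macrophage markers was lower, and no smooth muscle, neutrophil or colonocyte marker passed. Without array 117 no marker of any list passed, and Acadvl and Hadha differed by 0.32 (adjusted p 0.0553) and 0.30 (0.114). Cd36 differed by 0.57 (SE 0.25, adjusted p 0.278) and Dgat2 by -0.52 (SE 0.22, adjusted p 0.265).

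In CASP8 IEC-KO mice, loss of MLKL lowered 2 of 36 members (5.56%), Dgat2 and Pparg, where 0.421% of all genes passed. The median difference was 0.04, against 0.02 over all genes. Dgat2 read 7.24, 7.55, 7.00, 7.05 and 6.90 in CASP8 IEC-KO Mlkl -/-, against 8.21, 8.37, 7.89, 8.38 and 7.76 in CASP8 IEC-KO. The groups did not overlap, and the level was 0.508 of that in CASP8 IEC-KO (log2 difference -0.98, SE 0.22, adjusted p 0.0316). Pparg read 8.48, 8.53, 8.26, 8.36 and 8.52 in CASP8 IEC-KO Mlkl -/- against the CASP8 IEC-KO values above, again without overlap, and fell by 0.59 (SE 0.14, adjusted p 0.0343). Dgat1, the other enzyme of the last triglyceride step, also did not overlap and was lower by 0.27 without passing, where 4.02% of all genes did not overlap. Fibroblast marker means were 9.29 to 9.64 in CASP8 IEC-KO Mlkl -/- against 8.98 to 9.26 in CASP8 IEC-KO, without overlap. Smooth muscle means were 9.87 to 10.20 against 9.44 to 9.97. Colonocyte means were 10.51 to 10.84 against 10.79 to 10.92, and pan-epithelial means 10.76 to 10.81 against 10.72 to 10.94. The part of these cell types was not tested. A circadian clock score (the mean of Clock, Npas2 and Arntl minus the mean of Ciart, the Nr1d and Per genes measured, Tef and Dbp) was 1.70 to 2.70 in CASP8 IEC-KO Mlkl -/- against -1.44 to 1.81 in CASP8 IEC-KO. With this score in the model neither gene passed, and neither passed without any one of CASP8 IEC-KO arrays 16, 17 and 19 or CASP8 IEC-KO Mlkl -/- arrays 8 and 9. The effect of Mlkl loss did not differ between the CASP8 and FADD backgrounds in any member by the test (5 of 36 members had an unadjusted p under 0.05, against 11.0% of all genes), where 0.0154% of all genes passed.

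Against floxed controls no member passed in limma in any of the 4 co-deletions. The unadjusted p was under 0.05 for 7 members in FADD IEC-KO Zbp1 -/-, 3 in FADD IEC-KO Mlkl -/-, 2 with RIPK3 loss and 7 in CASP8 IEC-KO Mlkl -/-, where 12.7%, 9.38%, 10.7% and 8.19% of all genes did, and 1.07%, 0.159%, 0.0769% and 0.0462% passed the adjusted test. A p that misses the threshold does not show that the co-deletions equal their controls. Arrays did not overlap for Hsd17b4 and Fabp2 (both higher) in FADD IEC-KO Zbp1 -/-, where 3.9% of all genes did not, for Acadl and Hsd17b4 (both higher) in FADD IEC-KO Mlkl -/-, where 2.92% did not, and for no member in CASP8 IEC-KO Mlkl -/-, where 2.82% did not. Ppargc1a was at 0.829 of the Fadd fl/fl level in FADD IEC-KO Zbp1 -/- and 0.745 in FADD IEC-KO Mlkl -/-, and Cd36 at 1.26-fold and 1.06-fold. With RIPK3 loss, Cd36 was 0.718 and Pdk4 0.807 of the Casp8 fl/fl level, and all 5 Pdk4 arrays lay below all Casp8 fl/fl arrays, where 2.51% of all genes did not overlap.

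Cpt1a and Ppara passed in none of the 13 comparisons between genotypes, with Cpt1a group means from 9.47 to 9.69 and Ppara group means from 6.28 to 6.54. Over the 9 comparisons of single and double knockouts that came first, 18 of the 36 members (50%) passed at least once and 18 never did, where 29.5% of all genes passed at least once; the comparisons share arrays. Those that never passed include the carnitine shuttle (Cpt1a, Cpt2 and Slc25a20), the binding proteins Fabp1 and Fabp2, the thioesterases Acot1 and Acot2, the short-chain dehydrogenase Acads, the electron carrier Etfa, the later spiral enzymes Hadh, Echs1, Eci1 and Eci2, the peroxisomal Hsd17b4, the ketone body thiolase Acat1, the lipoprotein lipase inhibitor Angptl4, Dgat1 and Ppara.

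**Figure D4:**
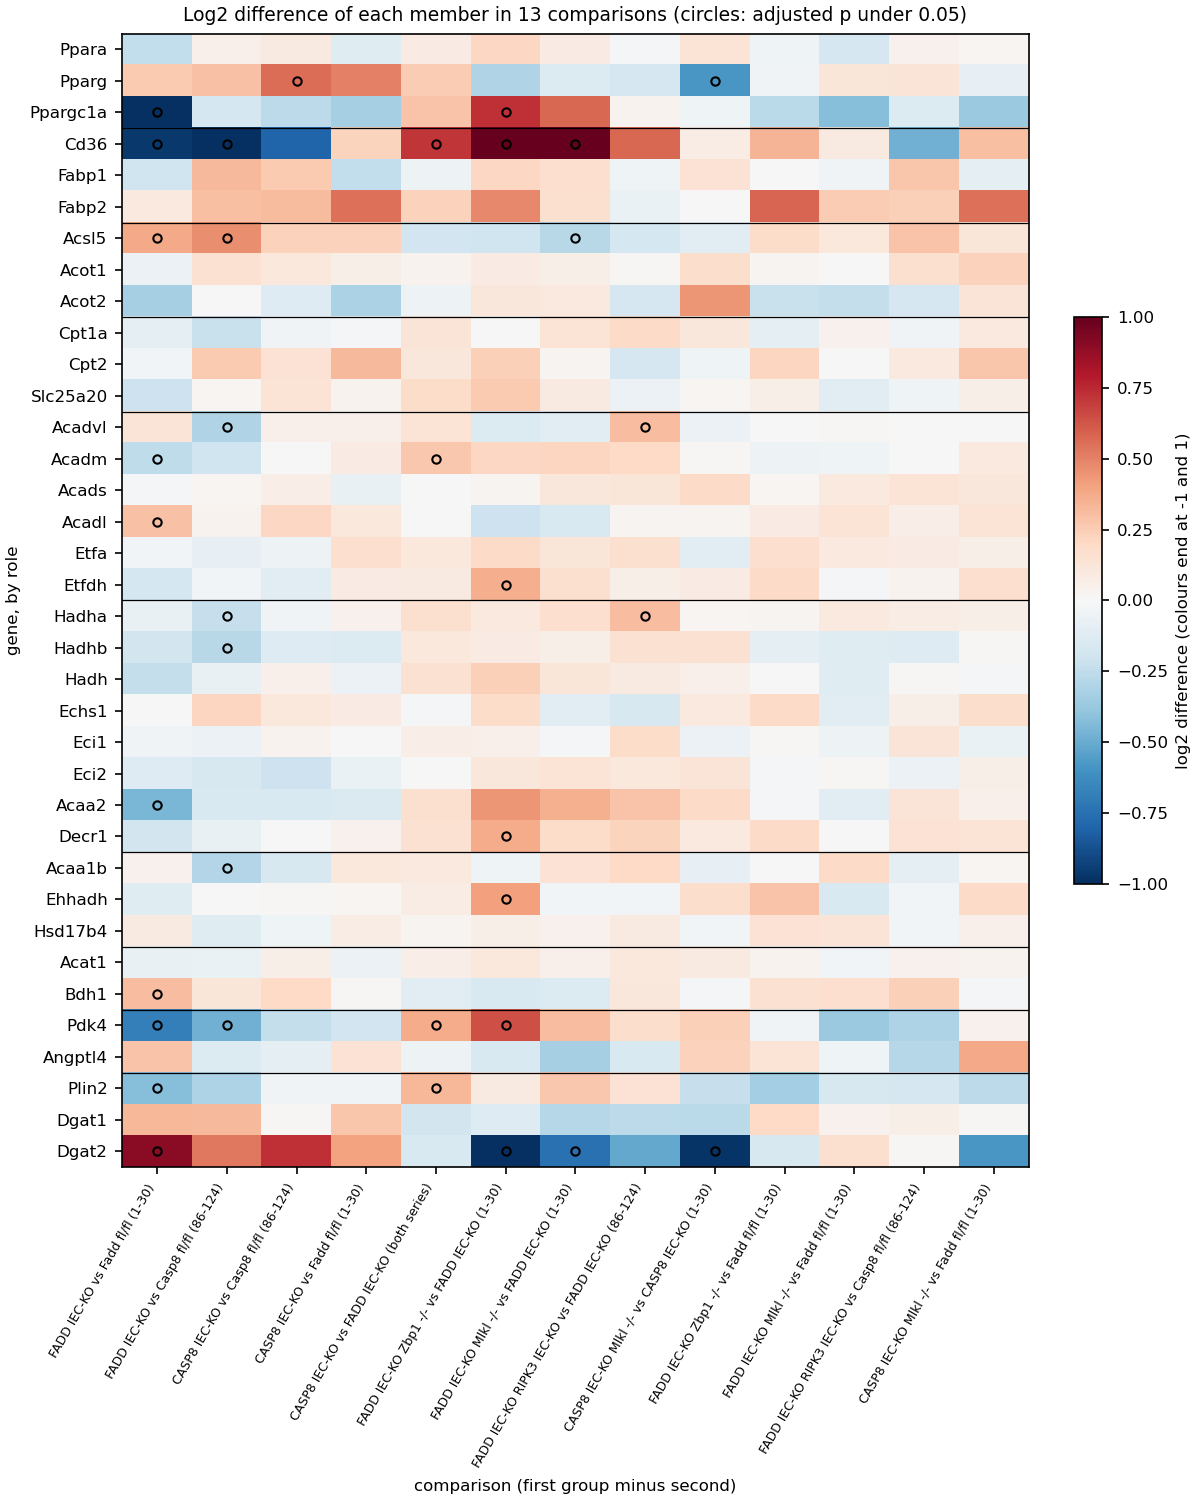
Log2 differences (colour, first group minus second) of the 36 members, ordered by role and divided by lines between roles, in 13 comparisons; circles mark an adjusted p under 0.05. Cd36 has 5 circles, Pdk4 and Dgat2 4 each and Acsl5 3, and the 4 right-hand columns, co-deletions against floxed controls, hold no circle.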

How the data were processed

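Colon RNA (100 ng per the labels) of 50 mice was hybridised to 1 Affymetrix whole-transcript array each. Each deposited value is a probe set's log2 signal, which the authors made with Affymetrix Expression Console and Transcriptome Analysis Console per the submitters' processing notes. The sources used here give neither versions nor the normalization method. Array quantiles differed by an SD of at most 0.047, so the values were used as deposited. Of 22142 probe sets, 19527 carried a single gene symbol and 2615 carried no symbol. Duplicate probe sets were reduced to the brightest (33 dropped), which left 19494 genes. Replicate numbers are the title numbers.

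In limma 3.58.1 (R 4.3.3), every group got its own mean in a joint model of the 50 arrays (40 residual degrees of freedom), with Benjamini-Hochberg adjustment over all genes and a threshold of 0.05; SEs come from this fit. No detection calls were used. The p-values rest on the spread between mice within groups, taken as 1 estimate over all 10 groups and not from the compared groups alone. The members, gene lists and alternatives were chosen with earlier results of these data known, so no p-value is given for the list. The rule for array-by-array values took members passing in at least 1 of the first 9 comparisons (the 14 largest). It added Ppara, Pparg, Ppargc1a and Cpt1a, in all 16. Of these 16, Plin2 is given by its ranges only. Members shown beyond these were added after their values were seen. Other lists name up to 3 passing genes per comparison. The procedure was tested on simulated data. Alternatives were quantile normalization, fitting just the groups compared, robust moderation with a trend, leaving out 40% of genes (the dimmest), covariates for sex (read from Y-linked genes) and clock score, group variance weights, pooled series, and leaving out arrays. Promoters came from RefSeq on GRCm38.p6, used for names and promoters only.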

Additional observations from a re-analysis of the deposited data

Results flagged for a closer look

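In groups of 5, 170 sets of values were checked for a sample far from its group, and 13 were found. The sets were the list mean, the members shown by array and Plin2, in each of 10 groups. Chance alone gives about 1 in 20. In CASP8 IEC-KO of the first series, array 16 had the lowest mean over all members (8.26, the others 8.32 to 8.34). Dgat2 was low on Fadd fl/fl array 30 (6.87, the others 7.83 to 8.10) and on FADD IEC-KO Mlkl -/- array 12 (7.53, the others 7.92 to 8.06). FADD IEC-KO array 22 was low for Ehhadh (7.04, the others 7.73 to 7.90) and for Bdh1 (8.58, the others 8.96 to 9.07). CASP8 IEC-KO array 104 was low for Ppargc1a (9.25, the others 9.80 to 9.95) and Ehhadh (7.49, the others 7.74 to 7.82), and array 87 for Ppara (6.17, the others 6.53 to 6.62). FADD IEC-KO Zbp1 -/- array 2 was low for Pparg (8.26) and high for Acadvl (8.70), and array 5 was low for Bdh1 (8.63). Pparg was high on FADD IEC-KO RIPK3 IEC-KO array 88 (8.93, the others 8.35 to 8.49), and Acsl5 low on CASP8 IEC-KO Mlkl -/- array 9 (9.11, the others 9.21 to 9.24).

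The Cd36 difference between CASP8 IEC-KO and floxed controls was 0.22 in the first series and -0.80 in the second, 1.02 apart. It is listed because the directions were opposite, and the difference between the series was not tested. The floxed controls were of different lines.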

How the results depend on the processing

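Of 36 passing member results in the first 9 comparisons, none reversed under any alternative, and 3 passed under all alternatives and removals of single arrays: Ppargc1a in FADD IEC-KO of the first series, and Cd36 and Acsl5 in that of the second. The fit of the compared arrays alone lost 27, leaving out FADD IEC-KO arrays 22 and 23 lost 22, the clock score and the group weights 10 each, sex 4 and quantile normalization 1. Calls lost with the clock score include Acadm, Acaa2 and Plin2 in FADD IEC-KO against Fadd fl/fl, and Pdk4 and Plin2 in CASP8 IEC-KO against FADD IEC-KO. In the first series that score was -0.27 to 1.67 in FADD IEC-KO (median 0.48) and -1.31 to 1.74 in Fadd fl/fl (median -0.81). The share of all genes passing changed with the setting too. It is not given beside each count below, so the counts cannot be read as particular to the members. Counts of passing members that moved by over 1.5 times are these, and the cause was not tested. With the compared arrays alone, FADD IEC-KO gave 5 against Fadd fl/fl and 2 against Casp8 fl/fl, FADD IEC-KO Zbp1 -/- 1 against FADD IEC-KO and 1 against Fadd fl/fl (Fabp2), CASP8 IEC-KO Mlkl -/- against CASP8 IEC-KO 1, and 0 remained for CASP8 IEC-KO against Casp8 fl/fl or FADD IEC-KO and for the Mlkl and RIPK3 losses against FADD IEC-KO. Without arrays 22 and 23, FADD IEC-KO gave 2 against Fadd fl/fl, and CASP8 IEC-KO, Zbp1 loss and Mlkl loss each 0 against FADD IEC-KO. With group weights, FADD IEC-KO gave 3 against Casp8 fl/fl, CASP8 IEC-KO 0 against Casp8 fl/fl and 2 against FADD IEC-KO, and RIPK3 loss 1. With the clock score, CASP8 IEC-KO gave 2 against Casp8 fl/fl, 1 against Fadd fl/fl and 2 against FADD IEC-KO, RIPK3 loss 1 and Mlkl loss in CASP8 IEC-KO 0. The sex covariate left 1 for RIPK3 loss, and CASP8 IEC-KO against Casp8 fl/fl gave 3 without the dimmest genes and 3 with pooled series. The difference between the FADD IEC-KO effects of the series gave 1 (Acadvl) with quantile normalization, without the dimmest genes, with trend and robust moderation and with the clock score.

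Leaving out single arrays gave 7 to 11 passing members for FADD IEC-KO against Fadd fl/fl, 3 to 7 against Casp8 fl/fl, 0 to 3 for CASP8 IEC-KO against Casp8 fl/fl, 1 to 8 against FADD IEC-KO, 4 to 10 for Zbp1 loss, 0 to 5 for Mlkl loss and 0 to 2 for RIPK3 loss in FADD IEC-KO, 0 to 2 for Mlkl loss in CASP8 IEC-KO, 0 to 1 for the difference between series, and 0 to 0 for all others. The number of all genes passing moved with such removals too. For the difference between series it was 2 of 19494 without FADD IEC-KO array 95 and 119 without array 117. It is not given for each range, so the ranges cannot be read as particular to the members. All members had 1 probe set, so averaging probe sets could give no other list mean. No paired analysis was possible because every array has a title number of its own.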
